A study of Mus musculus with 6 samples.

Results

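The genes described here are 34 genes of enteric neurons and glia, taken by gene symbol among the 18161 genes measured in the small intestine of mouse embryos. They were read by 78 of the 45037 probe sets tested. The set covers general neuronal genes, the cytoskeleton, adhesion, vesicle release, transmitter enzymes, peptides, 1 lineage factor (Phox2a) and 1 glial gene (S100b). The intestines, from the duodenum to the cecum, came from E18.5 offspring of C57BL/6 females with no stated treatment or genotype difference, and were separated into epithelium and mesenchyme after 9 h at 4 °C in Cell Recovery Solution. Each of the 6 Affymetrix Mouse Genome 430 2.0 arrays held RNA of 1 pool of 3 embryos, with 3 arrays of epithelium (A, B, C) and 3 of mesenchyme (A, B, C), and the comparison asked how expression differed between both compartments. The pools had been selected for purity by RT-PCR from 6 per tissue, and the embryos behind each pool are not named in the labels, so p-values measure the spread between these selected pools only. The mesenchyme was the whole remaining gut wall, and neurons and glia were not isolated from it.

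The enteric nervous system is a network of ganglia in the muscle wall and beneath the mucosa, and its cells descend from neural crest that colonises the gut during embryonic life. Motor neurons that contract the muscle release acetylcholine and tachykinins, whereas those that relax it release nitric oxide and vasoactive intestinal peptide (VIP). Noradrenaline reaches the gut mainly through sympathetic fibres whose cell bodies lie outside the gut wall. In bulk tissue, fewer cells of a type and less RNA per cell cannot be told apart, and the values below carry that limit.

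Of the 34 genes, 23 were called higher in the mesenchyme and 0 in the epithelium by limma. In the deposited values, an unadjusted p under 0.05 toward the epithelium was found for 0 of them. After quantile, loess or median scaling, Th, Npy and S100b had adjusted p-values under 0.05 toward the epithelium with differences below 2-fold, and after ribosomal scaling Npy did. A call here means a limma p-value adjusted over all genes under 0.05 and a log2 difference of at least 1, which is 2-fold. Of all genes, 15.9% were called higher in the mesenchyme and 8.19% in the epithelium. For each gene the level is the log2 value of its brightest probe set, and the difference is mesenchyme minus epithelium with its standard error (3 arrays per tissue). The differences of the 23 called genes ran from 1.07 to 5.17 with a median of 2.73, and 10 of the 23 were at least 8-fold. In 29 of the 34 genes every mesenchymal array was above every epithelial array, which was so for 30.5% of all genes. The median of epithelium minus mesenchyme was -2.05 over the 34 genes and -0.17 over all genes. The 11 genes not called were Elavl2, Ina, Dcx, L1cam, Scg3, Nos1, Chat, Th, Dbh, Npy and S100b.

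**Figure D1:**
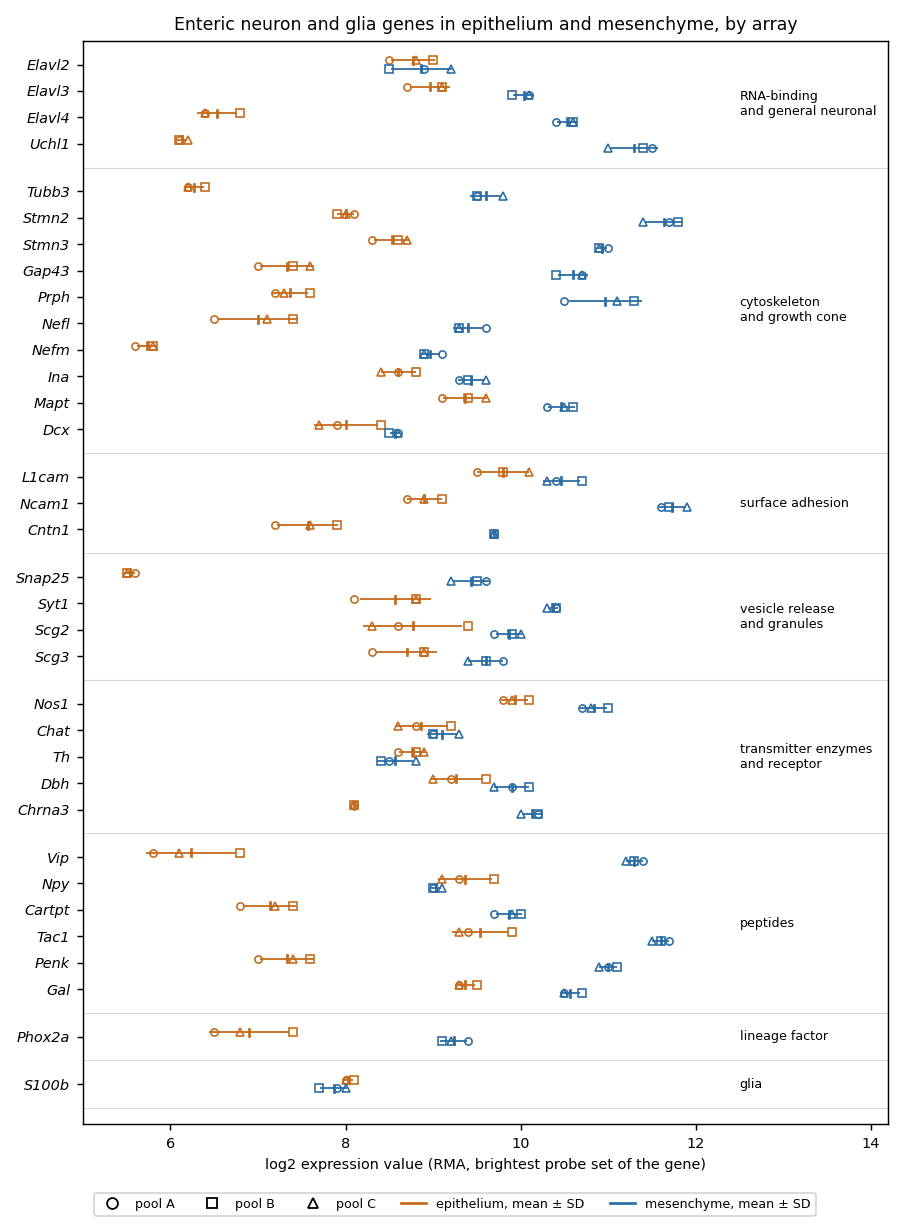
Log2 expression values (x axis) of the 34 genes in each of the 6 arrays, by role. Symbols are the pools A, B and C, and lines are the mean ± SD of 3 arrays in the epithelium (orange) and mesenchyme (blue). In 29 genes the mesenchymal arrays lie above all epithelial arrays, while Elavl2, Chat, Th and S100b overlap and Npy lies near 9 in both tissues.

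Among the general neuronal genes, 3 of 4 were called higher in the mesenchyme, against 15.9% of all genes. Uchl1 encodes a ubiquitin hydrolase (PGP9.5) used to stain enteric neurons. Its probe set 1448260_at read 6.1, 6.1 and 6.2 in epithelium A, B and C against 11.5, 11.4 and 11.0 in mesenchyme A, B and C. The tissues were far apart, with a measured difference of 5.17 ± 0.23 (adjusted p = 2.65e-20). Elavl4 encodes HuD, an RNA-binding protein of postmitotic neurons. It read 6.4, 6.8 and 6.4 in the epithelium against 10.4, 10.6 and 10.6 in the mesenchyme, a difference of 4.00 ± 0.23 (adjusted p = 2.81e-17). Its paralog Elavl3 (HuC) read 8.7, 9.1 and 9.1 against 10.1, 9.9 and 10.1. The arrays did not overlap, but the difference of 1.07 ± 0.23 (adjusted p = 1.98e-04) was just above the minimum. The paralog Elavl2 (HuB) read 8.5, 9.0 and 8.8 against 8.9, 8.5 and 9.2 at its brightest probe set. These arrays overlapped, and the difference of 0.10 ± 0.24 was not called (adjusted p = 0.773, 95% interval -0.38 to 0.58). Its direction turned when the arrays were scaled on quantiles, loess, medians or ribosomal protein genes.

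The cytoskeleton and growth cone genes gave 8 calls in 10, all higher in the mesenchyme, against 15.9% of all genes. Stmn2 encodes a stathmin that regulates microtubules in growth cones. It read 8.1, 7.9 and 8.0 in the epithelium against 11.7, 11.8 and 11.4 in the mesenchyme, a difference of 3.63 ± 0.23 (adjusted p = 3.7e-16). Prph encodes peripherin, an intermediate filament of peripheral and enteric neurons. It read 7.2, 7.6 and 7.3 against 10.5, 11.3 and 11.1, a difference of 3.60 ± 0.24 (adjusted p = 2.24e-15). Pool A was the lowest of the mesenchyme, whose SD of 0.42 was the largest of any of the 34 genes in that tissue. Tubb3, the neuronal beta-tubulin, read 6.2, 6.4 and 6.2 against 9.5, 9.5 and 9.8, and the difference was 3.33 (adjusted p = 3.61e-15). Gap43, a protein of growing axons, read 7.0, 7.4 and 7.6 against 10.7, 10.4 and 10.7, with a difference of 3.27 (adjusted p = 1.39e-14). Both genes had their tissues apart by more than 2 log2 units at the nearest arrays.

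Neurofilaments are the intermediate filaments that fill axons. The medium chain Nefm read 5.6, 5.8 and 5.8 in the epithelium against 9.1, 8.9 and 8.9 in the mesenchyme (difference 3.23). The light chain Nefl read 6.5, 7.4 and 7.1 against 9.6, 9.3 and 9.3 (difference 2.40). Stmn3, a second stathmin, read 8.3, 8.6 and 8.7 against 11.0, 10.9 and 10.9 (difference 2.40). These 3 genes had no overlap between tissues, and their adjusted p-values were 7.23e-15, 1.2e-10 and 2.36e-11. Mapt, the axonal microtubule protein tau, read 9.1, 9.4 and 9.6 against 10.3, 10.6 and 10.5, a difference of 1.10 (adjusted p = 1.46e-04). The internexin filament gene Ina and Dcx, a microtubule protein of young neurons, were not called at their brightest probe sets. Ina read 8.6, 8.8 and 8.4 against 9.3, 9.4 and 9.6 (difference 0.83, adjusted p = 0.00298). Dcx read 7.9, 8.4 and 7.7 against 8.6, 8.5 and 8.6 (difference 0.57, adjusted p = 0.0498). In both genes the mesenchymal arrays were above the epithelial ones by less than the 2-fold minimum.

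Of the adhesion molecules, Ncam1 and Cntn1 were called and L1cam was not. Ncam1, a surface protein of neurons that glia and other developing cells also carry, read 8.7, 9.1 and 8.9 in the epithelium against 11.6, 11.7 and 11.9 in the mesenchyme. The difference was 2.83 ± 0.23 (adjusted p = 3.64e-13). Cntn1, a membrane-anchored contactin of axons, read 7.2, 7.9 and 7.6 against 9.7 in each mesenchymal array, a difference of 2.13 (adjusted p = 8.11e-10). L1cam, an axonal adhesion molecule that crest-derived cells use in migration, read 9.5, 9.8 and 10.1 against 10.4, 10.7 and 10.3. Its arrays did not overlap, and the difference of 0.67 (adjusted p = 0.0201) was under the 2-fold minimum.

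The release machinery was represented by Snap25 and Syt1, and dense-core granules by Scg2 and Scg3. Snap25, which drives vesicle fusion, read 5.6, 5.5 and 5.5 in the epithelium against 9.6, 9.5 and 9.2 in the mesenchyme, a difference of 3.90 ± 0.23 (adjusted p = 4.52e-17). Its epithelial values were below the mean of the 27 bacterial control probe sets, which target no mouse transcript and averaged 5.92 to 6.07 in those arrays. Syt1, the calcium sensor of release, read 8.1, 8.8 and 8.8 against 10.4, 10.4 and 10.3, a difference of 1.80 ± 0.24 (adjusted p = 4.98e-08). The secretogranin Scg2 read 8.6, 9.4 and 8.3 against 9.7, 9.9 and 10.0. Its epithelial SD of 0.57 was the largest of the 34 genes, and the difference of 1.10 ± 0.25 passed (adjusted p = 4.21e-04). Scg3 read 8.3, 8.9 and 8.9 against 9.8, 9.6 and 9.4 and was not called, with a difference of 0.90 (adjusted p = 0.00198).

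Secretogranins and tachykinins are also products of enteroendocrine cells, which belong to the epithelium. Of 21 measured enteroendocrine markers of 23 listed, 9 (42.9%) were higher in the epithelium and 3 (14.3%) in the mesenchyme. The shares of all genes were 8.19% and 15.9%, so the mesenchymal count was near that of all genes. The sum of their 21 log2 levels ran from 192.8 to 202.1 in the epithelial arrays and from 172.7 to 179.5 in the mesenchymal arrays. The hormone genes Cck and Gcg were higher in the epithelium by 4.20 and 3.43, while Cpe and Resp18, which neurons also express, were higher in the mesenchyme by 4.33 and 1.80. Cpe averaged 13.33 in the mesenchyme, above each of the 34 genes there (highest Ncam1, 11.73), and which cells carried it was not tested. The part of enteroendocrine RNA in the epithelial levels of Scg2, Scg3, Tac1 and Gal was not tested.

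Of the transmitter enzymes and the receptor, 1 of 5 genes, Chrna3, was called higher in the mesenchyme at its brightest probe set. Of all genes, 15.9% were called so. Chrna3 encodes a subunit of the nicotinic acetylcholine receptor through which enteric neurons receive fast input. It read 8.1 in each epithelial array and 10.2, 10.2 and 10.0 in the mesenchyme, a difference of 2.03 ± 0.22 (adjusted p = 9.93e-10). Nos1, which makes nitric oxide in inhibitory neurons, read 9.8, 10.1 and 9.9 against 10.7, 11.0 and 10.8. Its tissues did not overlap, and its difference of 0.90 (adjusted p = 0.00132, 95% interval 0.44 to 1.36) was below the minimum. Chat, the enzyme of acetylcholine synthesis, read 8.8, 9.2 and 8.6 against 9.0, 9.0 and 9.3. The arrays overlapped, with a difference of 0.23 (adjusted p = 0.46, 95% interval -0.24 to 0.71) that turned in sign under quantile, loess and median scaling.

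The noradrenaline enzymes were not called. Th, the first enzyme of catecholamine synthesis, read 8.6, 8.8 and 8.9 in the epithelium against 8.5, 8.4 and 8.8 in the mesenchyme. These arrays overlapped, with a difference of -0.20 (adjusted p = 0.53, 95% interval -0.66 to 0.26), which changed sign under spike-in centring. Epithelium minus mesenchyme was 0.2 as deposited, and 0.52 under quantile (adjusted p = 0.0172), 0.46 under loess (0.0275) and 0.5 under median scaling (0.0296). Dbh, which turns dopamine into noradrenaline, read 9.2, 9.6 and 9.0 against 9.9, 10.1 and 9.7 at its brightest probe set, a difference of 0.63 (adjusted p = 0.0275). Its other probe sets gave -0.43 and -0.30, so the direction for Dbh differed between its probe sets and none was called.

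Among the peptide precursors, 5 of 6 were called higher in the mesenchyme, against 15.9% of all genes. Vip (1428664_at) read 5.8, 6.8 and 6.1 in the epithelium against 11.4, 11.3 and 11.2 in the mesenchyme. The difference was 5.07 ± 0.24 (adjusted p = 2.86e-19). The epithelial readings of Vip and Uchl1 lay around the bacterial control means of 5.92 to 6.07, so both differences can be understated and their order is not settled. Penk, the precursor of the enkephalins, read 7.0, 7.6 and 7.4 against 11.0, 11.1 and 10.9, a difference of 3.67 (adjusted p = 4.73e-16). Cartpt, the precursor of the CART peptides of enteric neurons, read 6.8, 7.4 and 7.2 against 9.7, 10.0 and 9.9, a difference of 2.73 (adjusted p = 1.55e-12). In these 3 genes the tissues lay at least 2 log2 units apart. Tac1, the precursor of substance P, read 9.4, 9.9 and 9.3 against 11.7, 11.6 and 11.5, a difference of 2.07 (adjusted p = 1.57e-09). Gal, the precursor of galanin, read 9.3, 9.5 and 9.3 against 10.5, 10.7 and 10.5, a difference of 1.20 (adjusted p = 3.13e-05). The tissues did not overlap for Tac1 or Gal. Npy, the precursor of neuropeptide Y, read 9.3, 9.7 and 9.1 against 9.0, 9.0 and 9.1. Its arrays overlapped at 9.1, and the difference of -0.33 was not called (adjusted p = 0.267, 95% interval -0.80 to 0.13). As epithelium minus mesenchyme, that is 0.33, and it became 0.66 under quantile scaling (adjusted p = 0.0034), 0.62 under loess (0.00545), 0.63 under median (0.00748) and 0.57 under ribosomal scaling (0.0123), but 0.07 under spike-in centring (0.898). None of these reached the 2-fold minimum.

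Peptide and catecholamine genes are textbook targets of cAMP signalling through CREB, which binds the palindrome TGACGTCA or its part TGACGT. RefSeq (GRCm38.p6) gave promoters, from 250 bases before to 50 after the start, for 26 of the 34 genes. TGACGT, searched on both strands, lay in 6 of 26 (23.1%) and in 8.4% of 27025 promoters of the table, and this motif was chosen after values were seen. The 6 genes were Elavl4, Scg2, Chat, Th, Vip and Cartpt, of which Chat and Th were not called in the array comparison. The parts CAGCACC and GGACAG of the RE1 element, which the repressor REST binds, lay in 2 of 26 (7.7%) and 10 of 26 (38.5%), against 8.1% and 24.7% of all promoters, also on both strands. The 120 bases before the start are shown for 4 genes that hold TGACGT there, 3 of them called (Vip, Cartpt and Scg2) and 1 not (Th), with the motif or full palindrome in capitals. They lie at chr10:5639098-5639217 (plus strand, Vip), chr13:99900684-99900803 (minus, Cartpt), chr1:79440027-79440146 (minus, Scg2) and chr7:142899996-142900115 (minus, Th), each read 5′ to 3′ along the gene.
Vip: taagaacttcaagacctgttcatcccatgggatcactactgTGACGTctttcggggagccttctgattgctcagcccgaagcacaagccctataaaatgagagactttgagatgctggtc
Cartpt: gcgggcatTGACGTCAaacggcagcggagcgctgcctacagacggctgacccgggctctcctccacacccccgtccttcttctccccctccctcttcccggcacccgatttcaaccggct
Scg2: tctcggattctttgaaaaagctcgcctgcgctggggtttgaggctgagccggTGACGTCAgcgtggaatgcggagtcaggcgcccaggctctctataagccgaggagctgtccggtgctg
Th: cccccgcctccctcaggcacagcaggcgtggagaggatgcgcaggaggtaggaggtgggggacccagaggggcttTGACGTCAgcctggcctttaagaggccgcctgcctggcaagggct
Cartpt, Scg2 and Th held the full palindrome, and Vip the shorter form. The match began 79 bases before the start in Vip, 112 in Cartpt, 68 in Scg2 and 45 in Th. A match describes letters in a window and was found in genes with and without a difference between tissues.

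Phox2a, a homeobox factor of the autonomic and enteric neuron lineage, read 6.5, 7.4 and 6.8 in the epithelium against 9.4, 9.1 and 9.2 in the mesenchyme. The difference was 2.33 ± 0.24 (adjusted p = 2.28e-10), with no overlap. S100b, a calcium-binding protein of enteric glia, read 8.0, 8.1 and 8.0 against 7.9, 7.7 and 8.0 at its brightest probe set. The arrays overlapped, and the difference of -0.17 was not called (adjusted p = 0.61, 95% interval -0.62 to 0.29). Epithelium minus mesenchyme was 0.17 as deposited, and 0.49 under quantile (adjusted p = 0.0145), 0.38 under loess (0.0445) and 0.47 under median scaling (0.033), while spike-in centring turned its sign. The second S100b probe set read 5.8, 6.5 and 5.9 against 7.0, 6.5 and 6.6, a difference of 0.63 in the opposite direction that was also not called (adjusted p over probe sets = 0.035).

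Over all 78 probe sets, 42 were called higher in the mesenchyme and 0 in the epithelium, where 15.5% and 5.98% of all probe sets were called. An unadjusted limma p under 0.05 toward the epithelium was found for 1 of the 78, the Cntn1 probe set 1459197_at with a difference of -0.53 (adjusted p over probe sets = 0.102). Of the 20 genes with several probe sets, 4 had every probe set called (Elavl4, Stmn2, Stmn3 and Nefl), 13 had called and uncalled ones, and 3 had none called (L1cam, Dbh and S100b). Elavl2, Ina, Dcx and Nos1 were called only by a probe set other than the brightest. With these, 27 of 34 genes had at least 1 probe set called, which was so for 21.7% of all genes. Among genes with several probe sets it was 17 of 20, against 30.5% of all 9020 such genes. The other 7 genes, with no probe set called, were L1cam, Scg3, Chat, Th, Dbh, Npy and S100b.

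The Nos1 probe set 1438483_at read 8.3, 8.7 and 8.4 in the epithelium against 10.2, 10.5 and 10.1 in the mesenchyme, a difference of 1.80 ± 0.23 (adjusted p over probe sets = 3.46e-08). The other Nos1 probe sets besides the brightest gave 0.17 and -0.23. Ina was called at 2.53 and 3.07 by its dimmer probe sets, Elavl2 at 1.90 and 1.87, and Dcx at 1.60 and 1.10. For Mapt, 1424719_a_at gave 3.43 against 1.10 at the brightest probe set, and the remaining ones gave 0.80 and 0.37. Ncam1 had the most probe sets, 7, of which 4 were called (2.83, 4.63, 3.63 and 1.73) and 3 were not (0.47, 0.13 and 0.03). When the probe sets of a gene were averaged, the calls of Elavl3 and Chrna3 ended and Ina was called. The difference then fell to 1.09 for Prph, 2.2 for Snap25, 1.29 for Cntn1 and 1.03 for Tac1, all still called.

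**Figure D2:**
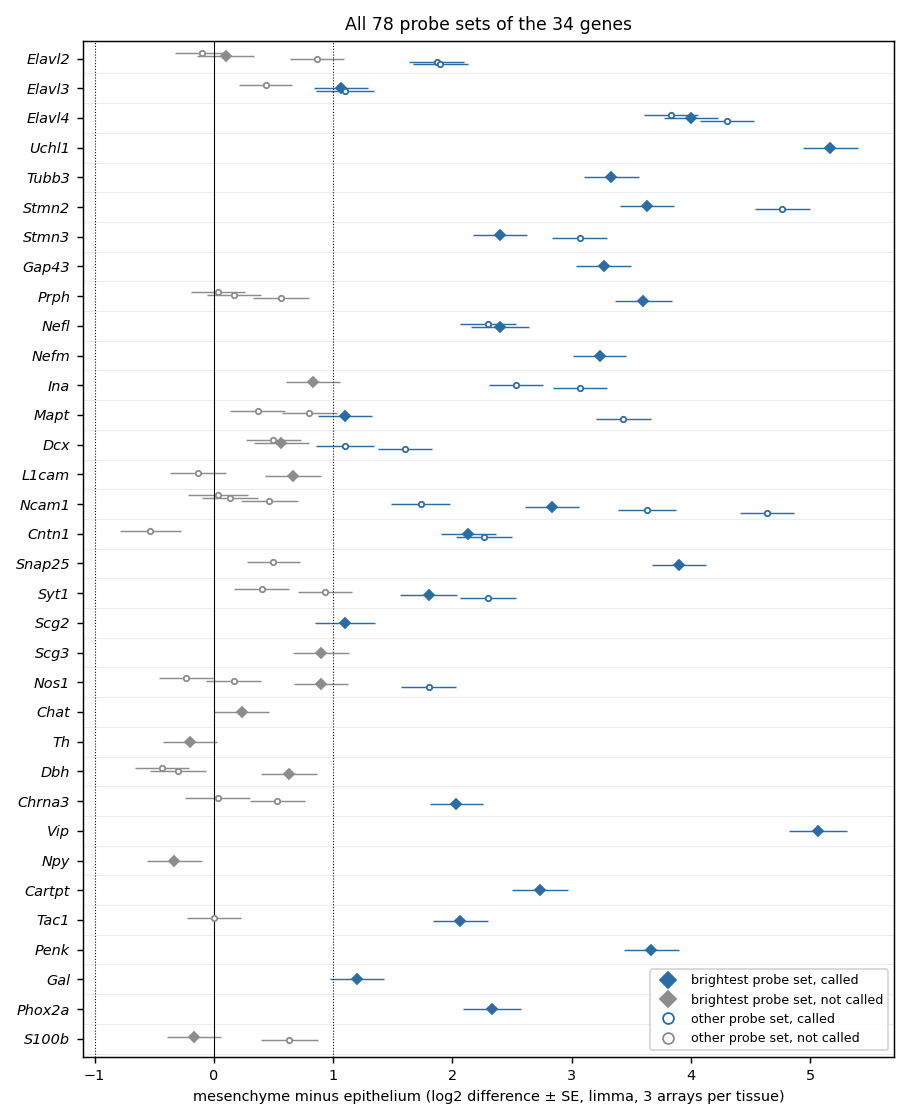
Log2 difference, mesenchyme minus epithelium ± SE (x axis), for all 78 probe sets of the 34 genes. Diamonds are the brightest probe set of a gene, circles the others, blue called and grey not, and dotted lines mark a 2-fold difference. Ncam1 spans 0.03 to 4.63, and Elavl2, Ina, Dcx and Nos1 have blue circles beside a grey diamond.

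Other genes of the enteric nervous system were taken from 6 lists with 102 measured genes of 113 listed, none of them among the 34. Of these 102, 34 (33.3%) were higher in the mesenchyme and 6 (5.9%) in the epithelium, against 15.9% and 8.19% of all genes. The other 62 were not called, and the median of epithelium minus mesenchyme was -0.43. For neuronal structure genes, 13 of 24 (54.2%, against 15.9% of all genes) were higher in the mesenchyme and 0 in the epithelium (0 also at an unadjusted limma p under 0.05). They were led by the tubulin Tubb2b (5.23), Dpysl3 (4.47) and the growth cone protein Basp1 (4.37). For synaptic vesicle release, 4 of 18 (22.2%, against 15.9% of all genes) were higher in the mesenchyme and 0 in the epithelium (1, Syp, at an unadjusted limma p under 0.05), led at their brightest probe sets by the active zone scaffold Rims1 (2.07), Rab3c (1.70) and Vamp2 (1.60), the vesicle partner of Snap25. The call of Rab3c ended when its probe sets were averaged. Counting any probe set gave 7 of 18, against 21.7% of all genes and 30.5% of those with several probe sets. This added Syn2, Syt4 and Syt11, and 1 Syt11 probe set differed by 3.00, more than Rims1. For neuronal structure the count by any probe set was 18 of 24, against the same shares.

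For lineage factors and receptors, 7 of 16 (43.8%) were higher in the mesenchyme and 1 (6.2%) in the epithelium, against 15.9% and 8.19% of all genes. Counting any probe set gave 10 and 2, where 21.7% and 9.61% of all genes were called that way. Ret, Gfra2 (3.47) and Ntrk3 (1.77) were added toward the mesenchyme and Pax3 (1.47) toward the epithelium. The endothelin receptor Ednrb differed by 6.70, the transcription factor Hand2 by 4.07 and Hoxb5 by 2.93, beside 2.33 for Phox2a. Hand2 and Hoxb5 are also expressed in other gut mesenchyme. Ednrb averaged 13.5 in the mesenchyme, above each of the 34 genes there (highest Ncam1, 11.73), and which cells carried it was not tested. Erbb3, a neuregulin receptor of glial precursors that epithelia express too, was higher in the epithelium by 2.03. Ret, the receptor for the glial cell line-derived factor, was not called at its brightest probe set (0.40) and was called at its other one (2.47), and it and the other genes added by a dimmer probe set, here and in the other lists, were named after their values were seen.

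For glia, 3 of 11 (27.3%) were higher in the mesenchyme and 2 (18.2%) in the epithelium, against 15.9% and 8.19% of all genes. The median of epithelium minus mesenchyme was 0.07. Counting any probe set gave 4 and 2, where 21.7% and 9.61% of all genes were called that way. Mbp, a myelin protein, was added toward the mesenchyme by dimmer probe sets (2.40 and 1.27). Its brightest probe set went the other way, higher in the epithelium by 0.93 (adjusted p = 0.00108) and not called. Under quantile, loess, median and ribosomal scaling that probe set was called higher in the epithelium. Fabp7, a fatty acid-binding protein of glial precursors, differed by 4.57 with values of 6.0, 6.9 and 6.9 against 11.3, 11.1 and 11.1, unlike S100b, whose arrays overlapped. Cnp differed by 2.00 and the glial cadherin Cdh19 by 1.73. The Cnp call ended when probe sets that can read several transcripts were avoided. Entpd2, an ecto-nucleotidase of glia that is not restricted to them, was higher in the epithelium by 1.20, a call that ended under spike-in centring. Among glial genes chosen after their values were seen, Sox10 (0.83, adjusted p = 0.00289) and Gfap (-0.07) were not called.

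**Figure D3:**
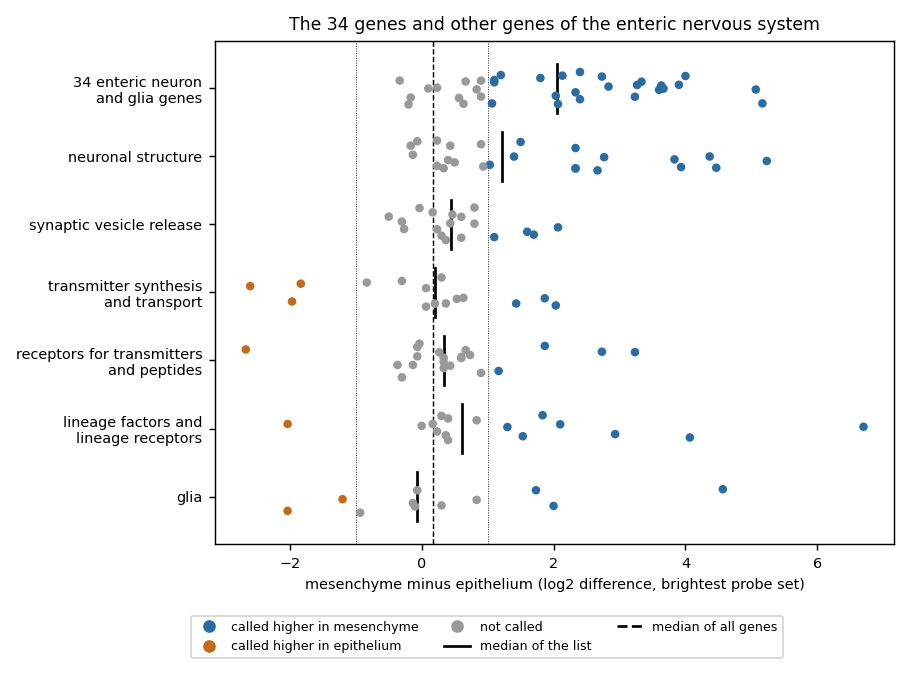
Log2 differences, mesenchyme minus epithelium (x axis), of the 34 genes and of 6 lists of other enteric nervous system genes, 1 point per gene. Blue points were called higher in the mesenchyme, orange in the epithelium and grey not, with bars at list medians and a dashed line at the median of all genes. The median of the 34 genes lies furthest to the right, and only the transmitter, glia, receptor and lineage lists hold called points in both directions.

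Genes of transmitter synthesis and transport gave 3 calls in each direction among 15 (20.0% each), and the same with any probe set counted. Of all genes, 15.9% were called higher in the mesenchyme and 8.19% in the epithelium, and 21.7% and 9.61% with any probe set counted. The mesenchymal count was thus near that of all genes. The vesicular amine carrier Slc18a2 (2.03), the vesicular acetylcholine carrier Slc18a3 (1.87) and Ache (1.43), which degrades acetylcholine, were higher in the mesenchyme. Slc18a3 read 6.2, 7.2 and 6.3 against 8.5, 8.5 and 8.3, beside overlapping arrays for Chat, the enzyme that supplies its cargo. Gch1, of tetrahydrobiopterin synthesis (2.60), Ddc, which makes dopamine and serotonin (1.97), and the serotonin transporter Slc6a4 (1.83) were higher in the epithelium. Of 4 chromaffin markers, Slc18a1 and Chgb were higher in the epithelium by 3.13 and 2.13, where 8.19% of all genes were called so. Pnmt and Chga, at 0.03 (adjusted p = 0.917) and 0.63 (adjusted p = 0.0293) toward the epithelium, were not called. Chga and Chgb were also among the enteroendocrine markers above. The 4 log2 levels summed to 41.7 to 43.8 in the epithelium against 36.3 to 37.6 in the mesenchyme. The part of amine-storing epithelial cells in the values of Th and Dbh was not tested.

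Receptors for the transmitters and peptides gave 4 calls toward the mesenchyme (19.0%) and 1 toward the epithelium (4.8%) among 21, close to the 15.9% and 8.19% of all genes. Counting any probe set gave 6 and 2, with Chrna7 and Chrnb4 added toward the mesenchyme and Chrnb2 toward the epithelium, where 21.7% and 9.61% of all genes were called that way. The nitric oxide target guanylate cyclase, by its subunits Gucy1b1 (3.23) and Gucy1a1 (2.73), and its kinase Prkg1 (1.87) were higher in the mesenchyme, where all 8 smooth muscle markers were higher too. Vipr1, a VIP receptor, was higher in the epithelium by 2.67, reading 9.0, 9.3 and 9.0 against 6.4, 6.4 and 6.5, opposite to Vip itself. A second Vipr1 probe set gave -0.03 and was not called. Of receptors chosen after their values were seen, Vipr2 (0.60, adjusted p = 0.0317), the tachykinin receptors Tacr1 (-0.03), Tacr2 (0.27) and Tacr3 (0.33) and the opioid receptors Oprm1 (-0.07), Oprd1 (-0.13) and Oprk1 (-0.07) were not called. The galanin receptors Galr1 (0.33) and Galr2 (0.43) were not called either. Likewise chosen after values were seen, the nicotinic subunit Chrna5 was called at 1.17, a call that ended under 4 of 5 scalings, and Chrnb4 was called only at its dimmer probe set (2.10 against 0.67).

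**Figure D4:**
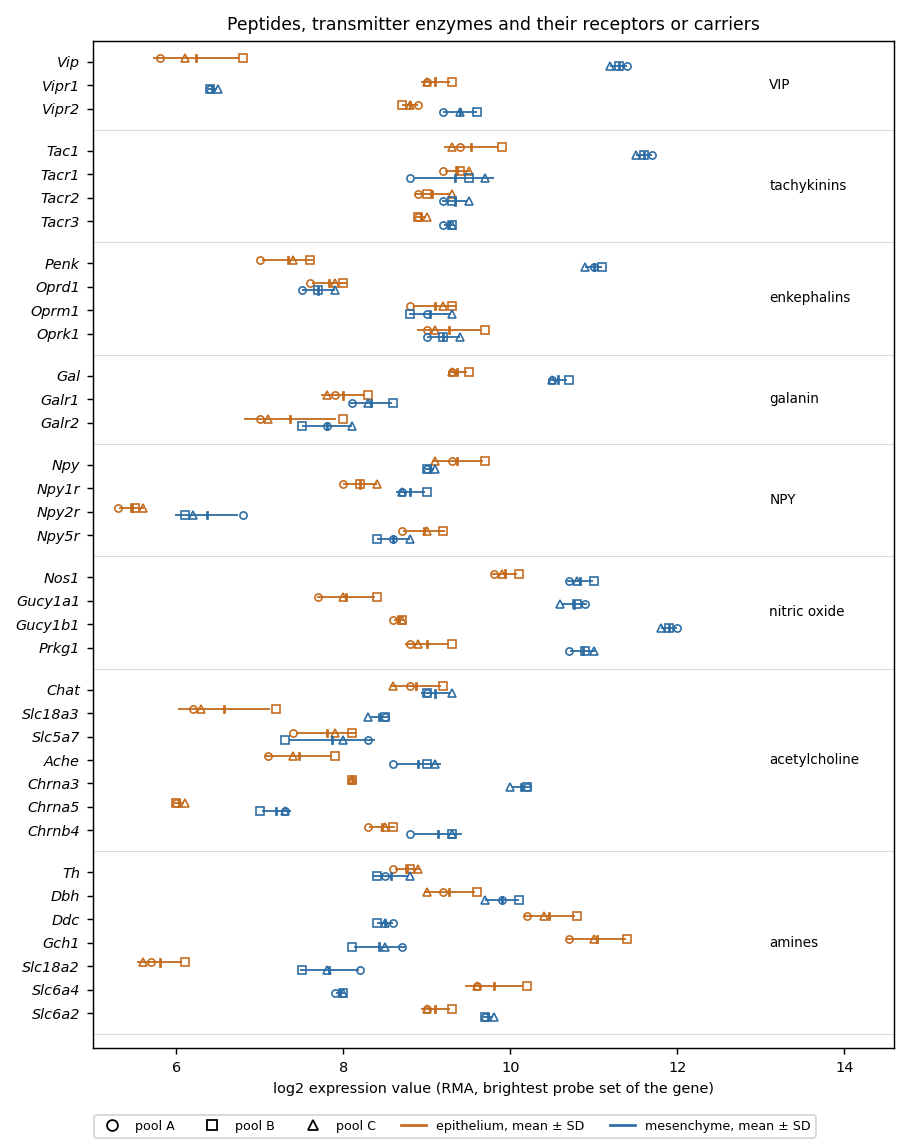
Log2 expression values (x axis) per array for the peptides and transmitter enzymes with their receptors, carriers and related enzymes, grouped by system. Symbols are pools A, B and C, and lines are the mean ± SD of 3 arrays in the epithelium (orange) and mesenchyme (blue). Vip and Vipr1 lie on opposite sides, and Tac1, Penk and Gal separate the tissues while receptors such as Tacr1, Oprm1 and Galr1 overlap.

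The labelled tissues carried their own markers. All 8 epithelial markers were higher in the epithelium, and all 8 smooth muscle, 7 fibroblast, 6 endothelial, 5 leukocyte and 4 measured interstitial cell of Cajal markers were higher in the mesenchyme. The summed log2 levels of the smooth muscle list ran from 63.8 to 68.0 in the epithelium against 109.0 to 109.7 in the mesenchyme, and those of the fibroblast list from 53.1 to 55.6 and 96.4 to 97.4. The part of these cells in the mesenchymal levels of genes they can share with neurons, such as Ncam1 and Penk, was not tested.

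Between pools, the 34 genes varied about as much as all genes. Their median SD was 0.15 against 0.17 over all genes in the mesenchyme, and 0.25 against 0.26 in the epithelium. Mesenchyme A, B and C were each alone highest in 9 of the 34 genes, and in 36.8%, 15.3% and 29.4% of all genes. Epithelium B was alone highest in 21 of 34 and in 75.4% of all genes, and epithelium A alone lowest in 19 of 34 and in 62.8% of all genes. The array medians were 8.1, 8.6 and 8.3 in epithelium A, B and C and 8.7, 8.5 and 8.7 in mesenchyme A, B and C. Without epithelium A the calls of Elavl3 and Mapt ended, and without epithelium C that of Scg2 did. Scg3 was called without epithelium B, epithelium C or mesenchyme C.

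Because the array medians differed, the values were also rescaled in 5 ways. Scaling on quantiles, loess, medians or ribosomal protein genes moved the median difference of all genes toward the epithelium by 0.21 to 0.30, and each left 19 of the 23 calls, ending those of Elavl3, Mapt, Scg2 and Gal. The share of all genes called higher in the mesenchyme was then 11.5% to 12.3%. Centring on 18 spike-in probe sets moved the median by 0.26 the other way, added Ina, Scg3 and Nos1 for 26 calls, and gave a background of 21.3%. That centring leaned on mesenchyme B, whose spike-ins averaged 9.80 against 10.56 to 10.77 in the other arrays, and without mesenchyme B it gave 23 calls. Uchl1 ranged from 4.87 to 5.43 and Vip from 4.77 to 5.33 over the 5 scalings.

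**Figure D5:**
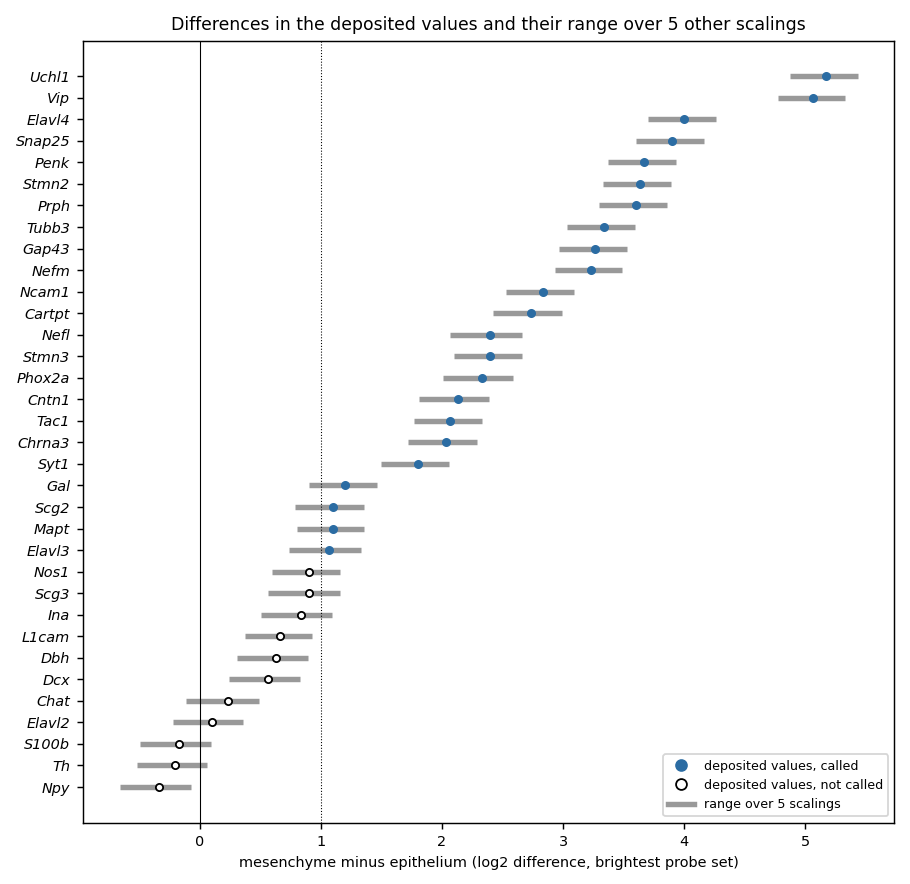
Log2 difference, mesenchyme minus epithelium (x axis), of the 34 genes in the deposited values (points, filled where called) and its range over 5 other scalings (grey bars). The dotted line marks a 2-fold difference. The bars of Gal, Scg2, Mapt and Elavl3 cross that line from above, those of Nos1, Scg3 and Ina from below, and those of Chat, Elavl2, S100b and Th cross 0.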

How the data were processed

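RMA was the authors' method for the deposited log2 expression values, per the submitters' processing notes. Its version, its settings and the genome build are not given in the sources used here. Values were rounded to 0.1, ranged from 4.6 to 15.2 and carried no detection calls, so a difference is understated where a tissue lies near background. With 6 arrays, their number limits the precision. Of 45101 probe sets, 64 controls were set aside. The platform annotation gave 1 symbol for 34945, several for 932 and none for 9160, and 59 symbols were updated through RefSeq, leaving 18161 genes. The probe set with the highest mean stood for a gene.

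Tissues were compared in limma 3.58.1 under R 4.3.3 (lmFit, then eBayes) across all 45037 probe sets and without covariates. Benjamini-Hochberg adjustment ran over genes for gene values and over probe sets for probe set values. With 4 residual and 31.7 prior degrees of freedom, each standard error leans on a spread shared by all probe sets. A call needed an adjusted p under 0.05 and a log2 difference of at least 1. The procedure was tested on simulated data. Figures were drawn with matplotlib 3.10.9.

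The 34 genes, the lists, the settings and the rule for named genes were chosen with earlier results of these data known. That rule took the 34 genes with every probe set, up to 3 called genes per direction with the largest difference in each pathway list, and up to 2 in each cell type list. Alternatives covered scaling, dim probe sets, the choice of probe set, the minimum difference, the replicate letter and leaving out each array. Protein sequences were not used here.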

Additional observations from a re-analysis of the deposited data

How the results depend on the processing

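The count of 23 genes called higher in the mesenchyme ranged from 21 to 24 with each array left out in turn, and that of probe sets from 38 to 43. The share of all genes called so was then 13.7% to 19.3%. The count was 29 with no minimum difference (27.4% of all genes) and 18 with a minimum log2 difference of 2 (6.17% of all genes). None of the 34 genes was called higher in the epithelium under any alternative run. The other enteric nervous system genes, 34 higher in the mesenchyme and 6 in the epithelium, fell to 20 and 3 at the minimum of 2, and ranged from 33 to 36 and from 6 to 7 with each array left out. Of all genes called, 66.0% were higher in the mesenchyme, against 49.4% to 55.4% under the quantile, loess, median and ribosomal scalings and 77.5% with spike-in centring. The direction turned for genes that were not called, given here as epithelium minus mesenchyme. Elavl2 was at 0.22 under quantile, 0.17 under loess, 0.2 under median and 0.14 under ribosomal scaling, and from -0.28 to 0.07 with each array left out (0.03 without epithelium A). Chat was at 0.11 under quantile, 0.04 under loess and 0.07 under median scaling. Under spike-in centring Th was at -0.06 and S100b at -0.09. With probe sets averaged, Dbh was at 0.03 and S100b at -0.23, and with cross-reading probe sets avoided, Dbh was at 0.3. The cause of these turns was not tested. Between tissues, same-letter deviations correlated at -0.31 (A), -0.15 (B) and 0.12 (C), and the unlike pair of epithelium B and mesenchyme A reached 0.36. Because the embryos behind each pool are not named, these correlations cannot decide whether pools of the same letter shared embryos. With the letter as a replicate block, 23 genes, 42 probe sets and 34 and 6 other genes were called. Estimating the spread over gene representatives, and spike-in centring without mesenchyme B, were added after seeing the data and gave 23 each. The missing detection calls limit what can be said of epithelial levels near the bacterial controls.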
